A study of Mus musculus with 6 samples.

Results

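The genes described here are 10 members of the bone morphogenetic protein (BMP) pathway, namely the ligands Bmp2, Bmp4, Bmp6 and Bmp7, the receptors Bmpr1a, Bmpr1b and Bmpr2, and the target genes Id1, Id2 and Id3. They were picked by name, as 10 of the 43280 rows of the unfiltered count table, by a rule that holds no threshold on a measured value, although earlier results of these data were known. RNA sequencing was performed on submandibular glands (SMGs) of female mice, with 3 libraries labelled wild type (WT) and 3 labelled DKO, numbered 1, 4 and 5 in each group. DKO stands for loss of both Hs3st3a1 and Hs3st3b1, which encode sulfotransferases that add 3-O-sulfate to heparan sulfate (HS), the sugar chain of cell surface and basement membrane proteoglycans. The reading frame of Hs3st3a1 is shifted by a small zinc finger nuclease deletion in the first exon, the loss of Hs3st3b1 is marked by a LacZ cassette, and both changes lie on the same allele on a C57BL/6 background. The WT mice are littermates and the glands adult, as the study describes them. The labels give no age and no founder line.

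BMPs are secreted dimers of the TGF-beta superfamily. They bind a complex of type I and type II serine/threonine kinase receptors, which phosphorylates SMAD1, SMAD5 and SMAD9, and these enter the nucleus with SMAD4 and raise transcription of targets such as the ID genes. ID proteins are helix-loop-helix proteins without a DNA-binding region, and they hold back differentiation factors by binding them. Several BMPs bind HS, and BMP signaling takes part in branching of the embryonic salivary gland.

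Library totals ranged from 23674258 to 29611975 counts. The 2 targeted genes had similar counts under both labels, and neither was called different between the groups. Hs3st3a1 had 15, 11 and 15 counts in WT 1, 4 and 5 and 11, 8 and 13 in DKO 1, 4 and 5 (log2 fold change -0.22, SE 0.61, DESeq2 Benjamini-Hochberg adjusted p = 0.947). Hs3st3b1 had 173, 203 and 261 counts in WT and 255, 120 and 189 in DKO (-0.04, SE 0.24, adjusted p = 0.976 by DESeq2). The counts of these 2 genes thus do not separate the labels, and the reason was not tested. The groups are called by their labels throughout. Library WT 5 stood apart in markers of the neighbouring sublingual and parotid glands, whose summed normalized counts were 183777 there, 8821 in DKO 1 and 301 to 460 in the other 4 libraries. In bulk RNA, fewer cells of a type and less RNA per cell cannot be told apart.

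None of the 10 genes was called different between the groups. All 10 passed the filter of at least 10 counts over the 6 libraries, and 0 of 10 had a DESeq2 adjusted p under 0.05, where 2.9% of the 18606 rows tested were called (539 rows), 1.02% as higher in DKO (189) and 1.88% as lower (350). At an unadjusted p under 0.05 DESeq2 gave 0 of the 10, where 12.2% of all rows passed. After adjustment edgeR and limma-voom each gave 0 of the 10, where 0.0537% and 0.0376% of all rows were called. Before adjustment each gave 1 of the 10, which was Bmp4, where 15% of all rows passed with edgeR and 14% with limma-voom, so the share among the 10 was no higher than over all rows. The median log2 fold change of the 10 genes was 0.03, beside 0.00 over all rows tested. Bmp4 was the only 1 of the 10 whose groups did not overlap, where 20.3% of all tested rows had groups that did not overlap (9.85% higher and 10.5% lower in DKO). Values below are counts divided by the DESeq2 size factor of the library (normalized counts), always in the order 1, 4 and 5, and fold changes are of DKO over WT with n = 3 in each group.

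**Figure D1:**
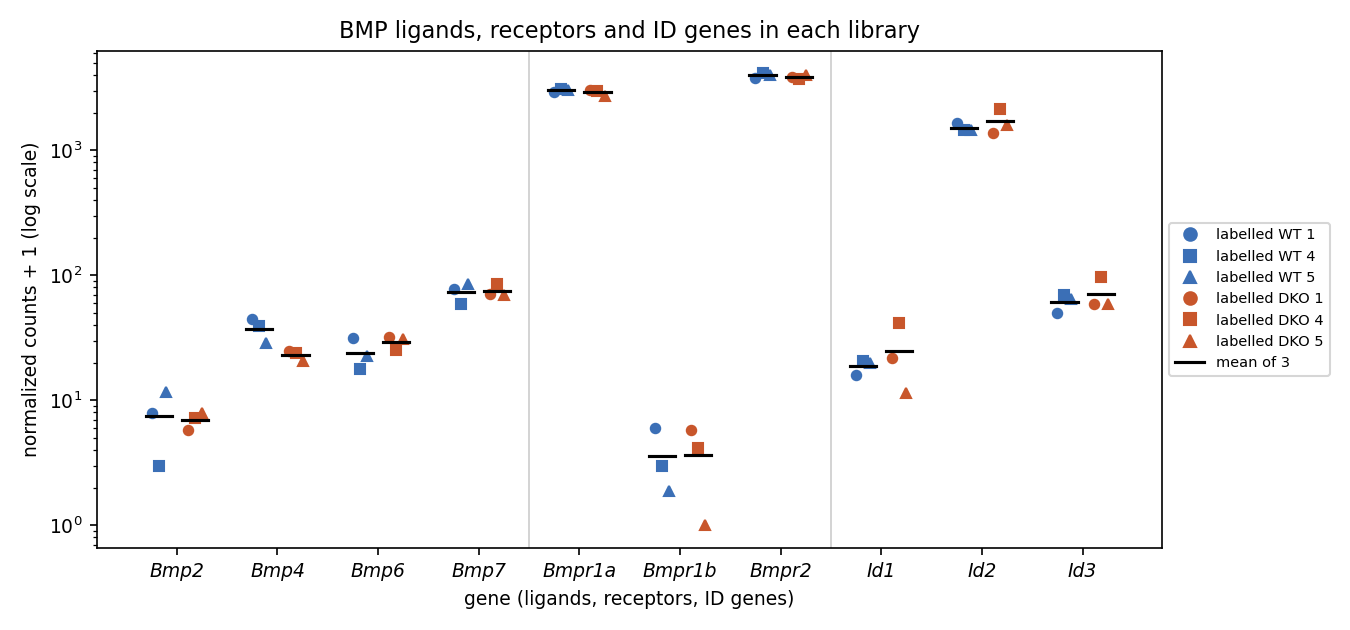
Normalized counts plus 1 (log axis) of the 10 genes in each of the 6 libraries, by gene, with points for libraries and black bars for group means (n = 3). The groups overlapped for every gene except Bmp4, which was 27.8 to 43.5 in WT and 19.6 to 23.7 in DKO.

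Bmp4 was the ligand with the largest difference. It encodes a BMP made chiefly by mesenchymal cells in many organs and lies on chromosome 14 at 46383520 to 46390669 on the minus strand (GRCm38). Its normalized counts were 43.5, 38.1 and 27.8 in WT and 23.7, 23.0 and 19.6 in DKO. Every DKO library lay below every WT library, although WT 5 was closer to DKO 1 than to WT 1. The means were 36.5 ± 8.02 in WT and 22.1 ± 2.20 in DKO (SD, n = 3), a log2 fold change of -0.72 (SE 0.41, 95% interval -1.52 to 0.08, adjusted p = 0.456 by DESeq2). The interval reached from a value of 0.349-fold to 1.06-fold, so neither a fall to below 0.5-fold nor no difference lay outside it. Without WT 5 the log2 fold change was -0.88, and without WT 1 it was -0.57. The unadjusted p of Bmp4 was 0.0792 with DESeq2, 0.0351 with edgeR and 0.0380 with limma-voom, fits across all rows whose adjusted p-values were 0.456, 0.292 and 0.328. Markers of fibroblasts, a mesenchymal cell type, moved in the same direction, with summed normalized counts of 12725, 11182 and 15923 in WT and 12003, 8429 and 9476 in DKO. The sums overlapped, as DKO 1 lay above WT 4. Of these 7 markers 2 were called lower, 0 higher, and all 7 had negative fold changes. WT 5 was the highest of the 6 libraries in these markers and the lowest WT library for Bmp4. As given below, the myoepithelial, T cell and macrophage sums were lower in every DKO library than in every WT library. Red blood cell sums were higher in every DKO library, and endothelial markers had positive fold changes in 9 of 9. The part of any of these lists in the Bmp4 values was not tested.

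Bmp7 had the most counts of the 4 ligands and did not separate the groups. It encodes an epithelial BMP needed for kidney and eye formation and lies on chromosome 2 at 172868012 to 172940321, minus strand. The 3 WT libraries had 76.2, 57.7 and 84.2 normalized counts and the DKO libraries 69.3, 83.6 and 69.2. The 3 DKO values lay inside the WT range. The log2 fold change was 0.02 (SE 0.27, 95% interval -0.51 to 0.56, adjusted p = 0.988 by DESeq2), so a change of 2-fold in either direction lay outside the interval.

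Bmp6, a BMP best known for control of iron balance through liver hepcidin, lies on chromosome 13 at 38345107 to 38500302 on the plus strand. In normalized counts, it was at 30.7, 16.6 and 21.5 in WT and 31.3, 24 and 30.0 in DKO. WT 1 and DKO 1 were almost equal and the groups overlapped, with a log2 fold change of 0.31 (SE 0.44, adjusted p = 0.873 by DESeq2). An exon of Bmp6 overlaps one of Txndc5 on the opposite strand over 224 bases. The libraries were unstranded and Txndc5 had 4968 to 6940 counts, so reads of the shared stretch cannot be assigned to either gene.

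Bmp2, a ligand of bone and heart formation which lies on chromosome 2 at 133552159 to 133562885 (plus strand), was near the limit of detection. It had 7, 2 and 12 counts in WT and 5, 6 and 6 in DKO. The log2 fold change was -0.14, with a 95% interval from -1.89 to 1.61 (adjusted p = 0.978 by DESeq2). At this depth the interval spans 0.269-fold to 3.05-fold, so both no difference and large changes either way lay inside it.

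Shares within the 4 ligands were taken from the same counts, so they are not a second measure of Bmp4. Levels per kilobase (kb) of exon set different genes side by side. They rest on annotated exon lengths, which need not be those of the transcripts that were counted. Per kb, Bmp4 made up 40.2, 47.0 and 29.5% of the summed level of the 4 ligands in WT and 28.4, 26.3 and 24.5% in DKO. Bmp7 made up 39.4, 39.7 and 50.1% in WT and 46.4, 53.4 and 48.4% in DKO. The Bmp4 shares of the groups did not overlap, with 29.5% in WT 5 next to 28.4% in DKO 1, and the Bmp7 shares did overlap. These shares were not tested, and the smallest two-sided p that an exact permutation test of 3 against 3 libraries can give is 0.1. The summed level of the 4 ligands was 36.1 to 48.1 normalized counts per kb in WT and 35.6 to 39.0 in DKO. Other ligands are outside this sum, such as Gdf5 with a mean of 284 per kb.

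**Figure D2:**
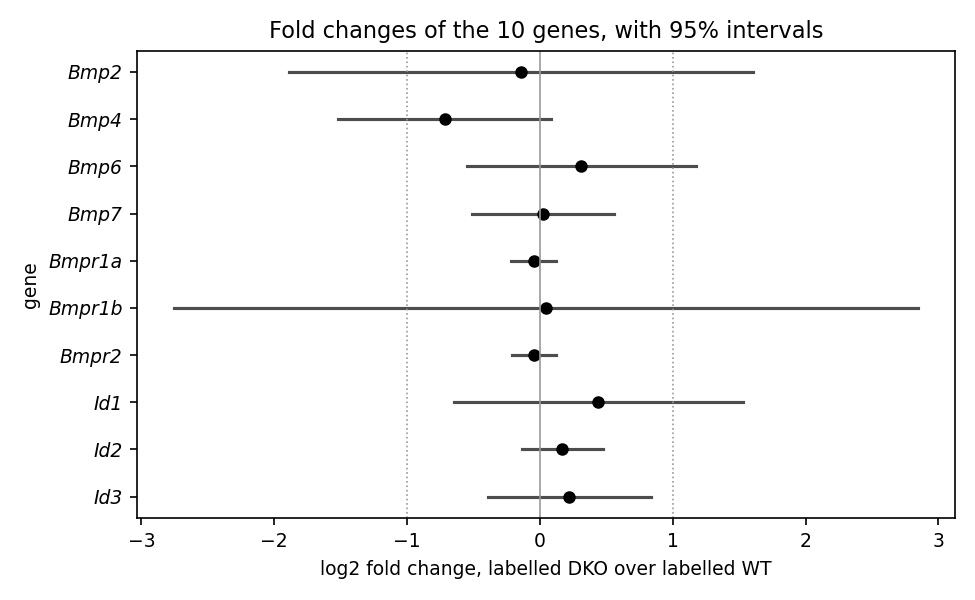
Log2 fold change of each gene (DKO over WT, n = 3 each) on the horizontal axis with its 95% Wald interval, by gene. All 10 intervals include 0, and those of Bmp7, Bmpr1a, Bmpr2, Id2 and Id3 lie within 2-fold in either direction.

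The receptors Bmpr1a and Bmpr2 varied least of the 10 genes. Bmpr1a, a type I receptor that binds BMP2 and BMP4 and lies on chromosome 14 at 34410734 to 34503341 (minus strand), had normalized counts of 2938, 3068 and 3046 in WT and 3024, 2994 and 2741 in DKO. Bmpr2, the type II receptor that phosphorylates the type I receptor, lies on chromosome 1 at 59763400 to 59879014 (plus strand) and had 3782, 4128 and 4034 in WT and 3863, 3719 and 3986 in DKO. For both genes the groups overlapped and the lowest library was a DKO library. The log2 fold change of Bmpr1a was -0.05 (SE 0.09, 95% interval -0.22 to 0.12, adjusted p = 0.913 by DESeq2). That of Bmpr2 was also -0.05 (SE 0.09, -0.21 to 0.12, adjusted p = 0.912 by DESeq2). These intervals span 0.859-fold to 1.09-fold and 0.862-fold to 1.09-fold, the narrowest among the 10 genes. The ratio of Bmpr1a to Bmpr2 per kb was 2.15 ± 0.0484 in WT and 2.15 ± 0.176 in DKO (SD, n = 3).

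Bmpr1b, the other type I receptor for BMPs and known for its part in cartilage, was barely detected. It lies on chromosome 3 at 141837136 to 142169425 (minus strand) and had 5, 2 and 1 counts in WT and 5, 3 and 0 in DKO. Its mean was too low for an adjusted p, and its 95% interval of -2.75 to 2.84 on the log2 scale allows large changes either way. The 3 receptors summed to 674 to 713 normalized counts per kb in WT and 653 to 692 in DKO.

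The 3 ID genes were each highest in the same library, DKO 4. Because they are read as BMP targets, the stretch of 250 bases before the RefSeq start site of Id2 and Id3 is printed with that of Bmp4, the ligand whose groups were apart. SMAD1 and SMAD5 are known to bind a GC-rich palindrome, GGCGCC, and SMAD4 a shorter site, CAGAC, and capitals mark these letters on either strand (GTCTG is the reverse complement of CAGAC). The sequences are from RefSeq on GRCm38.p6, 5′ to 3′ on the strand of the gene, at chr12:25096093-25096342 (minus) for Id2, chr4:136143572-136143821 (plus) for Id3 and chr14:46390670-46390919 (minus) for Bmp4.
Id2: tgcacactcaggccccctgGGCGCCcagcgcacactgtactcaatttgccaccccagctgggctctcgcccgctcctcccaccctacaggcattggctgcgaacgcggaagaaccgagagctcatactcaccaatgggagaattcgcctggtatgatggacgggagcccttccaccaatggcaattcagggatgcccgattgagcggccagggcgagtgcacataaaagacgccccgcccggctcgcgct
Id3: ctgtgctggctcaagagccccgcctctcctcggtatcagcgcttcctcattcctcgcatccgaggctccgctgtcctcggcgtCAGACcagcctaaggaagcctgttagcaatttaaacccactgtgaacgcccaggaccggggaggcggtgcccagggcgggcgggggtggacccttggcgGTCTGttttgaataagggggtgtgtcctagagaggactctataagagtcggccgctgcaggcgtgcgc
Bmp4: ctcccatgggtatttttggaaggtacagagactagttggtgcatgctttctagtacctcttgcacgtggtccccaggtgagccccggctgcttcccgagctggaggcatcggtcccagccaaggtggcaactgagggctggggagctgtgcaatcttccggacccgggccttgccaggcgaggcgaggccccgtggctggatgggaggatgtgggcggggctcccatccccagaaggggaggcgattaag
Id2 holds 1 palindrome, which starts 231 bases before the start site, Id3 holds the shorter site at 167 and another at 68 bases before it, and these letters are not in the Bmp4 stretch. Windows were matched for 7 of the 10 genes (9 windows). The palindrome was in 3 genes (Bmpr1a, Bmpr2 and Id2) and the shorter site in 3 (Bmp6, Bmpr1b and Id3), and no copies of the motifs overlapped. Of 32851 RefSeq windows of this length, 9.59% held the palindrome and 42.2% the shorter site. These shares are per window, and Bmpr1b had more than 1 window. The windows were not matched for base composition, so the shares do not show whether either motif is more frequent in these genes. The start sites used for Bmp6 and Bmpr2 lie 437 and 879 bases from the nearest GENCODE start of the gene. These matches describe letters and not binding.

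Id2 was the most abundant of the 10 genes per kb. It lies on chromosome 12 at 25093799 to 25097140 (minus strand) and is known for its part in lymphoid and mammary development. Its normalized counts were 1663, 1441 and 1441 in WT and 1379, 2145 and 1588 in DKO. DKO 4 was above and DKO 1 below every WT library, so the groups overlapped. The log2 fold change was 0.17 (SE 0.16, 95% interval -0.14 to 0.47, adjusted p = 0.749 by DESeq2), and without DKO 4 it was -0.03.

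Id3, which lies on chromosome 4 at 136143497 to 136145755 (plus strand) and is known for roles in lymphocytes and vessels, had normalized counts of 48.5, 68.5 and 63.6 in WT and 57.9, 95.1 and 57.6 in DKO. DKO 4 was the highest and the other DKO libraries lay inside the WT range. The log2 fold change was 0.22 (SE 0.31, adjusted p = 0.874 by DESeq2), and -0.06 without DKO 4.

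Id1, a target used widely as a readout of BMP signaling, lies on chromosome 2 at 152736251 to 152737410 (plus strand). Its normalized counts were 14.8, 19.6 and 18.8 in WT and 20.9, 40.8 and 10.4 in DKO. Both the highest and the lowest library carried the DKO label. The log2 fold change was 0.44 (SE 0.56, adjusted p = 0.853 by DESeq2), and -0.17 without DKO 4.

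Relative to the WT mean, DKO 4 was at 2.30-fold for Id1, 1.42-fold for Id2 and 1.58-fold for Id3. The spread of the counts of these genes was taken as a chi-square per degree of freedom, where 1 is counting error alone. In DKO it was 9.04 for Id1, 91.1 for Id2 and 6.35 for Id3, beside 0.37, 11.2 and 1.83 in WT. This measure grows with the count, so it does not rank the genes by spread. DKO 4 was the highest library for 32.0% of the 11489 tested genes with a mean of at least 50 normalized counts. Among acinar markers, genes of the saliva-secreting cells, 5 of 8 were highest in DKO 4, such as the water channel gene Aqp5 with 4420, 5010 and 3983 in WT and 5502, 8161 and 5867 in DKO. The part of the acinar genes in the ID values was not tested.

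**Figure D3:**
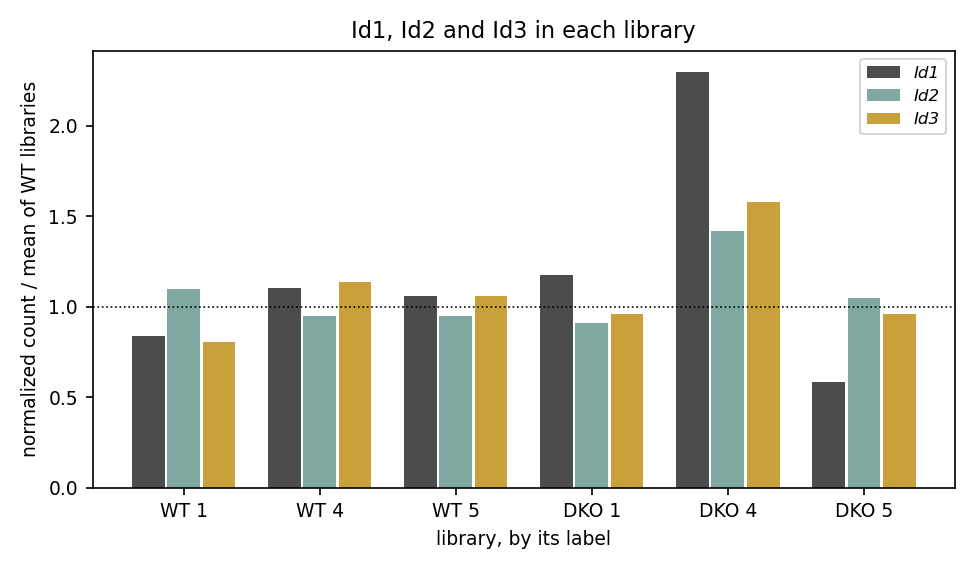
Level of Id1, Id2 and Id3 in each library, as a bar per library relative to the mean of the 3 WT libraries (dotted line at 1). DKO 4 is the highest bar for each gene, at 2.30, 1.42 and 1.58, and the other DKO libraries lie on both sides of 1.

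The order of the 10 genes by level per kb of exon put Id2, Bmpr1a and Bmpr2 above all ligands among them. Id2 had a mean of 660 normalized counts per kb over the 6 libraries, Bmpr1a 467 and Bmpr2 218. They were followed by Id3 at 36.4, Bmp7 at 18.3, Id1 at 18 and Bmp4 at 13. Bmp6 at 6.59, Bmp2 at 1.76 and Bmpr1b at 0.438 were the lowest. The ranges over the libraries overlapped for the neighbours Bmp7 and Id1, Id1 and Bmp4, and Bmp2 and Bmpr1b, and for no other neighbours. Id2 alone made up 92.6% ± 1.61 of the summed ID level in WT and 92.3% ± 1.63 in DKO (SD, n = 3).

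**Figure D4:**
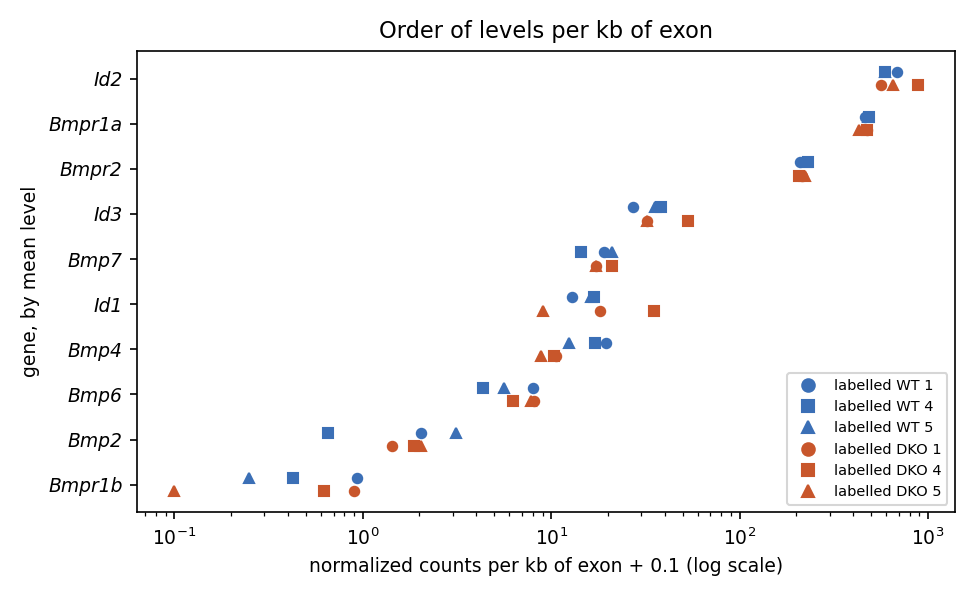
Normalized counts per kb of exon plus 0.1 (log axis) of each gene in each library, with genes ordered by mean level. Id2, Bmpr1a and Bmpr2 lie above 200 in every library, and none of the ligands shown exceeds 20.9.

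Of 63 other genes of the pathway, 51 had enough counts to test. DESeq2 called 1 lower and 0 higher (2.9% of all rows were called), and 6 were lower and 3 higher at an unadjusted p under 0.05, which 12.2% of all rows passed. The median log2 fold change of the 51 was -0.08, with 17 positive and 34 negative.

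Fstl1, a secreted glycoprotein that binds BMPs, was the gene called. Its normalized counts were 563, 503 and 686 in WT and 464, 388 and 370 in DKO, so that all DKO libraries lay below all WT libraries. The log2 fold change was -0.52 (SE 0.16, adjusted p = 0.0370 by DESeq2). The call was lost with edgeR (adjusted p = 0.170) and limma-voom (0.221), and with the replicate number as a block (adjusted p = 0.146 by DESeq2). It was also lost without WT 1, WT 5, DKO 4 or DKO 5, with DESeq2 adjusted p = 0.189, 0.418, 0.208 and 0.296. The fibroblast markers given beside Bmp4 were also lower in sum in 2 of the 3 DKO libraries than in every WT library, and their part in the Fstl1 values was not tested.

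Among other extracellular modulators, 15 of 18 were tested. Nbl1, an antagonist of BMPs, had 107, 103 and 190 in WT and 94.9, 74.2 and 65.7 in DKO (log2 fold change -0.77, adjusted p = 0.139 by DESeq2). WT 5 was its highest library, and without it the log2 fold change was -0.42 (adjusted p = 0.856 by DESeq2). Htra1, a secreted protease, had 307, 304 and 311 in WT and 269, 172 and 218 in DKO (-0.48, adjusted p = 0.134 by DESeq2). Htra1 passed without DKO 1 (-0.66, adjusted p = 0.0141 by DESeq2), and leaving out each of the other libraries gave -0.49 to -0.33 with DESeq2 adjusted p-values of 0.271 to 0.509. For both genes every DKO library was below every WT library. Tll1, a protease that cleaves the antagonist chordin, had 1889, 211 and 1208 in WT and 222, 417 and 161 in DKO (-2.05, adjusted p = 0.222 by DESeq2). WT 4 lay within the DKO range, and without it Tll1 passed at a DESeq2 adjusted p = 5.45e-04 with a log2 fold change of -2.54. Leaving out each of the other libraries gave DESeq2 adjusted p-values of 0.255 to 0.780, the highest without WT 1 (-1.41). Smgc, on the acinar marker list, had the same order of the 6 libraries, with 292306, 24599 and 186101 in WT and 36565, 117664 and 18428 in DKO, and its part in the Tll1 values was not tested. The antagonist genes Nog and Grem1 had 0 to 2 and 0 counts. Crim1, which tethers BMPs at the membrane, had the highest level of the group at 313 normalized counts per kb.

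Of 12 further ligands 6 were tested. Gdf5, a BMP-type ligand of joint formation, had the highest level of them at 284 normalized counts per kb, beside 18.3 for Bmp7. Its normalized counts were 633, 547 and 541 in WT and 663, 876 and 698 in DKO, with every DKO library above every WT library (log2 fold change 0.38, SE 0.14, adjusted p = 0.130 by DESeq2, and 0.25 on the log2 scale without DKO 4). Among 9 further receptors and co-receptors 8 were tested and DESeq2 gave 0 at an adjusted and 0 at an unadjusted p under 0.05. Acvr2a, a type II receptor, was highest at 96.6 per kb.

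All 12 SMAD genes and regulators were tested and DESeq2 called 0, with 2 (Tob1 and Tob2) at an unadjusted p under 0.05, which 12.2% of all rows passed. Smad1, Smad4 and Smad5 had log2 fold changes of 0.10, -0.10 and -0.06. Tob1, an inhibitor of BMP-activated SMADs, had 770, 958 and 821 in WT and 1036, 1226 and 958 in DKO (0.34, adjusted p = 0.166 by DESeq2). Its relative Tob2 had a fold change of the other sign, with 633, 651 and 659 in WT and 509, 621 and 384 in DKO (-0.36, adjusted p = 0.275 by DESeq2). Tob2 passed without DKO 4 (-0.54, adjusted p = 0.0428 by DESeq2), and without DKO 5 it was at -0.20 (adjusted p = 0.739 by DESeq2).

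Of 12 further target genes 10 were tested. Msx2, a homeobox gene induced by BMPs, had 34.6, 0.978 and 21.5 in WT and 2.85, 3.14 and 0 in DKO (log2 fold change -3.22, adjusted p = 0.0792 by DESeq2). WT 4 lay within the DKO range, and without it the DESeq2 adjusted p was 0.00247. Without WT 1 it was 0.691 (log2 fold change -2.48), without WT 5 0.467, without DKO 1 0.151 and without DKO 5 0.389, and without DKO 4 DESeq2 gave none. WT 4 was also the lowest WT library in the T cell and B cell marker sums, and their part in the Msx2 and Tll1 values was not tested. Hes1, a repressor shared with Notch signaling, had 270, 225 and 264 in WT and 299, 396 and 302 in DKO (0.39, adjusted p = 0.235 by DESeq2, and 0.25 on the log2 scale without DKO 4). Id4, the remaining ID gene, had a log2 fold change of -0.04.

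**Figure D5:**
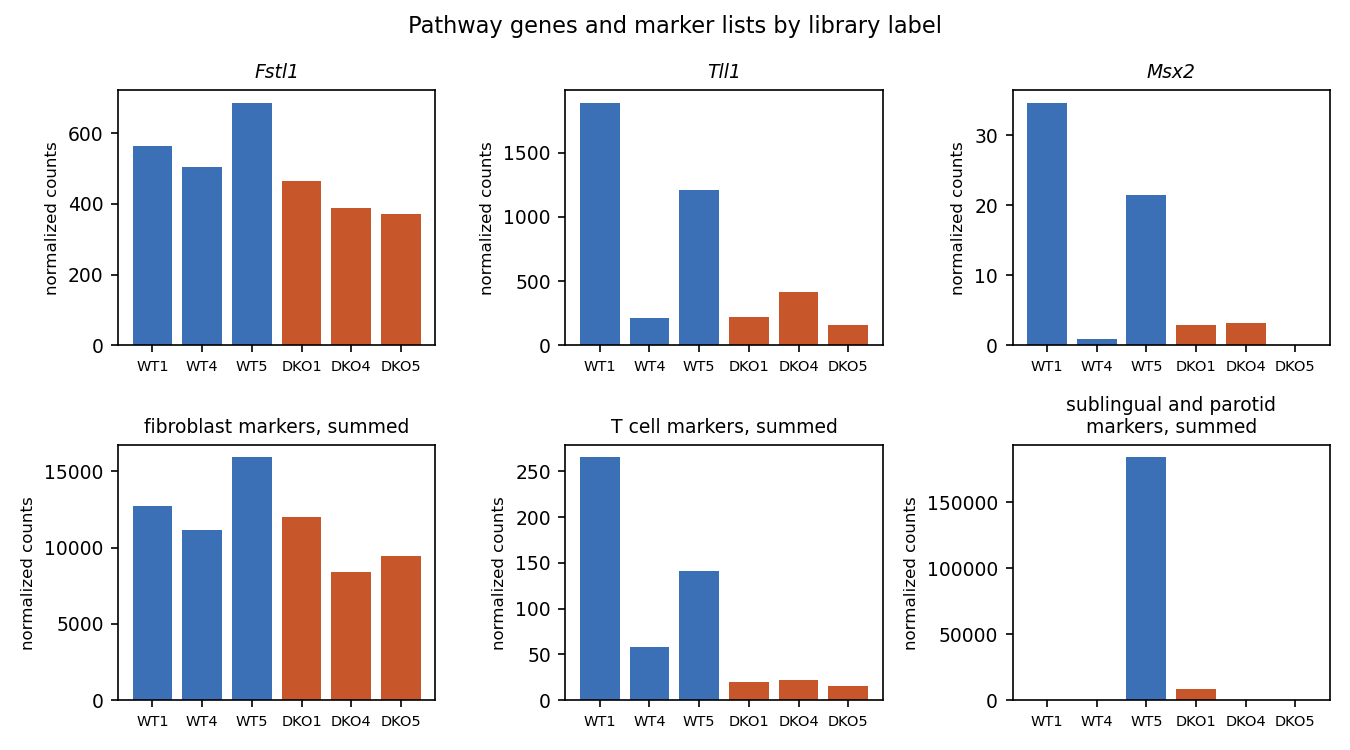
Normalized counts of Fstl1, Tll1 and Msx2 (upper panels) and summed normalized counts of the fibroblast, T cell, and sublingual and parotid markers (lower panels), with 1 bar per library. Tll1, Msx2 and the T cell markers are high in WT 1 and WT 5 and lower in WT 4, and the sublingual and parotid sum reaches 183777 in WT 5.

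Several cell type lists moved with the groups, where DESeq2 called 1.88% of all rows lower and 1.02% higher. Myoepithelial markers, genes of the contractile cells around acini, summed to 11352, 10495 and 10803 in WT and 7655, 6241 and 5738 in DKO, with 6 of the 8 tested called lower and Oxtr at 0 to 2 counts. B and plasma cell markers summed to 3957, 960 and 2898 in WT and 1100, 712 and 266 in DKO, with 2 of 7 called lower. T cell markers summed to 265, 57.7 and 141 in WT and 19.9, 21.9 and 15 in DKO, with 4 of 6 called lower. Macrophage markers summed to 1763, 1145 and 1793 in WT and 1140, 947 and 851 in DKO, with 2 of 5 called lower. Granular and striated duct markers had 4 of 10 called lower and 0 higher, and 9 of 10 had negative fold changes. The duct sums overlapped, at 223200 to 272948 in WT and 226654 to 297478 in DKO. Endothelial markers had positive fold changes in 9 of 9 with 0 called by DESeq2, where 3 passed at an unadjusted p under 0.05. The part of these lists in the values of the BMP genes was not tested. Of 8 acinar markers 3 were called higher (Aqp5, Agt and Agr2) and 0 lower, with 6 positive and 2 negative fold changes. For 5 of the 8 every DKO library was above every WT library (9.85% of all rows). Their sum, 378429 to 517456 in WT and 395320 to 425779 in DKO, was carried mostly by Prol1 and Smgc, of which Smgc ranged from 18428 to 292306.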

How the data were processed

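RNA of SMGs from female mice was sequenced as unstranded Nextera XT libraries on a HiSeq2500. Raw gene-level counts were deposited by the authors, named by symbol, as a full table of 43280 rows and a filtered one, whose 17527 rows were those above 5 counts in at least 1 library with the same counts. A table of normalized values was not used. The submitters' processing notes name STAR 2.5.2a, DESeq2, edgeR, limma and the builds GRCh38, GRCm38 and mm10 without roles; the counting tool and annotation are not given in the sources used here.

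Rows with at least 10 counts over the 6 libraries (18606) were tested with DESeq2 1.42.0 in R 4.3.3 (median-of-ratios size factors, 0.867 to 1.12, two-sided Wald test, Benjamini-Hochberg adjustment over all rows, threshold 0.05, independent filter tuned to 0.1). An adjusted p was not given for 2556 rows, of which 2525 had too low a mean and 31 failed Cook's filter. Intervals are 95% Wald intervals. edgeR 4.0.16 (quasi-likelihood) and limma 3.58.1 (voom) were among 18 alternatives, of which 1 (without WT 5 and DKO 1) was chosen after seeing the data. The code was tested on simulated counts. The labels describe 3 glands per group and do not say more of their source, so the number of mice is not given. The p-values weigh the group difference against a spread estimated between these samples. Within each group no libraries were duplicates (chi-square per degree of freedom 14.7 to 38.7). Pairs across the groups were not compared in this way.

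The members and gene lists were chosen with earlier results of these data known. Pathway genes were named where the unadjusted DESeq2 p was under 0.05, where they had the highest level per kb of their list, or as examples of a role (up to 10). The tested gene with a mean of at least 50 whose centred log2 normalized counts (pseudocount 1) were nearest to each ID gene was also named. Positions and exon lengths were from GENCODE M21 (GRCm38), with lengths as the union of exons, and sequences from RefSeq (GRCm38.p6). Older symbols were matched through RefSeq synonyms.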

Additional observations from a re-analysis of the deposited data

How the results depend on the processing

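The 10 BMP genes had 0 calls under all 18 alternatives, and the lowest adjusted p of any of them was 0.0678 (Bmpr2, total counts as size factors). Total counts moved the median log2 fold change of all genes with a mean of at least 50 from 0.03 to -0.21 and that of the 10 genes from 0.03 to -0.20. Leaving out 1 library gave medians of the 10 genes from -0.070 (without DKO 4) to 0.15 (without DKO 5), and leaving out WT 5 and DKO 1 together, chosen after seeing the data, gave 0.19. Bmp4, Bmp6, Bmpr1a and Bmpr2 kept their sign throughout.

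The other pathway genes had 1 call with DESeq2, 0 with edgeR, 0 with limma-voom and 7 with total counts. Leaving out 1 library gave 0 to 3 calls, namely Fstl1, Msx2 and Tll1 without WT 4, Fstl1 and Htra1 without DKO 1, Tob2 without DKO 4, and 0 without WT 1, WT 5 or DKO 5. Without WT 5 and DKO 1 there were 0. Over all rows, 539 were called with DESeq2, 10 with edgeR, 7 with limma-voom, 1472 with total counts, 149 (without WT 5) to 817 (without WT 4) on leaving out 1 library, and 183 without WT 5 and DKO 1. With the latter pair left out Bmp4 was at -0.94. With total counts 62 of the calls were higher and 1410 lower, beside 189 and 350.

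With the replicate number as a block, 0 pathway genes were called by DESeq2 and 0 by edgeR. Of all rows 343 and 128 were called, beside 539 and 10 without the block. Deviations of same-numbered libraries from their group means had correlations of -0.13, -0.02 and -0.26 for 1, 4 and 5. That of WT 5 with DKO 1 was 0.45. Such correlations cannot show whether the numbers mark pairs, and the main fit had no block. The cause of these changes was not tested. Depth limits Bmp2 and Bmpr1b, at 12 counts or fewer in every library.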

Other observations

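By the measure of likeness, the root mean square difference of centred log2 normalized counts over the 6 libraries, the gene nearest to Id1 was Tnfsf13 (0.191), the gene nearest to Id2 was Rpl38 (0.036) and the gene nearest to Id3 was Slco1a5 (0.056). Each was the nearest of at least 11488 genes over 6 values, and such a search always returns a nearest gene. Shared control was not tested.

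Red blood cell markers summed to 1261, 1772 and 863 normalized counts in WT 1, 4 and 5 and to 3167, 2824 and 2939 in DKO 1, 4 and 5. Of these 5 markers 4 were called higher by DESeq2, where 1.02% of all rows were.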
